A study of Mus musculus with 48 samples.

Results

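In mouse jejunum, the stretch of small intestine between duodenum and ileum, 8 genes of sulfate handling were followed: the sulfate transporters Slc13a1 and Slc26a2, the PAPS synthases Papss1 and Papss2, and the cytosolic sulfotransferases Sult6b2, Sult1b1, Sult1d1 and Sult2b1. They were taken by symbol from a count table of 55401 gene IDs through a GENCODE annotation of mm10, and all 8 of 8 were found and had enough counts to be tested. The group was chosen from measured values of these same libraries, in which Slc13a1 was lower in the knockout. The genotype differences and daily patterns of the 8 genes are therefore given here as descriptions, without p-values. Where one of the 8 is said below to pass an adjusted p threshold, this too describes these libraries and is not a test of that gene. RNA sequencing of whole jejunal tissue compared a control genotype, bmal1fl/fl (floxed Bmal1 alleles), with a knockout, Bmal1iec-/-, every 4 h from CT1 to CT21. CT stands for circadian time, hours on the internal cycle of mice without light cues, and all groups were in constant darkness. Bmal1, listed under the symbol Arntl, encodes a core transcription factor of the circadian clock. The knockout is described here only as far as its label goes: the Cre driver behind its name, the strain, sex and age of the mice, and whether each library came from its own mouse are not stated in the labels. Each of the 12 groups had 4 libraries except knockout CT9 with 3, which makes 47 libraries of the 48 labelled, and the remaining one was not analysed here. Replicate numbers follow accession order and pair nothing. All p-values below therefore measure the spread between these samples, which may be technical.

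Inorganic sulfate is taken up across the brush border of small intestinal cells, where Slc13a1 is a sodium-coupled sulfate transporter and Slc26a2 a sulfate/anion exchanger. Inside the cell, the 2 PAPS synthases turn sulfate and ATP into PAPS, the activated sulfate donor. Cytosolic sulfotransferases pass the sulfate group of PAPS to small molecules such as phenols, steroids and drugs, which makes them more water-soluble, and the intestine is one of the organs where this conjugation takes place. Golgi sulfotransferases use the same donor for proteins, lipids and sugar chains, and sulfatases remove the group again.

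RefSeq promoter windows (GRCm38.p6, the assembly also known as mm10; 250 bases before to 50 after a start site) were at hand for 6 of the 8 genes, 10 windows in all. Those of Sult6b2 and Papss2 are shown because both genes had a 24-h pattern in control, and one of Sult1b1 because it has a level that hardly varied over the day and holds the clock-related match found among the 10. The windows are chr6:142804417-142804716 on the minus strand, chr19:32595465-32595764 on the plus strand and chr5:87538146-87538445 on the minus strand, each read 5′ to 3′ along its gene's strand. Capitals mark matches to the motifs searched, and a run without capitals holds none.
Sult6b2: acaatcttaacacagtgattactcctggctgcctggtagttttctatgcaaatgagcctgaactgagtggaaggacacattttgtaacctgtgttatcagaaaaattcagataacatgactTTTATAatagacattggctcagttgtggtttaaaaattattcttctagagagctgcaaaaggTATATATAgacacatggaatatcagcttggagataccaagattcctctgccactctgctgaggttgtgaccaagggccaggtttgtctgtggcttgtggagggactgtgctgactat
Papss2: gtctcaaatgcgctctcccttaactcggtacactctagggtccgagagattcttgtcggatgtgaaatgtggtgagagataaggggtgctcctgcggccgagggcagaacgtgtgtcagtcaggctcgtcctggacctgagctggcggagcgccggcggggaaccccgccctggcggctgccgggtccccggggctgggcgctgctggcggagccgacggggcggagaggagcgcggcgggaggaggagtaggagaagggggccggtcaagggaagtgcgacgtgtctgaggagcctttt
Sult1b1, second window: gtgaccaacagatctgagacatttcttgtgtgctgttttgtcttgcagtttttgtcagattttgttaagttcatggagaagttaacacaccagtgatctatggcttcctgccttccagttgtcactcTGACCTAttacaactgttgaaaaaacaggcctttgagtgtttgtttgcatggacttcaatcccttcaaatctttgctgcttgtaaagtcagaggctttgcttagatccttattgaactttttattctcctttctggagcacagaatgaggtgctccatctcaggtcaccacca
The motifs were searched on both strands: the E-box CACGTG, the letters bound by BMAL1 with its partner CLOCK, the D-box TTACGTAA or TTATGTAA, the core TAGGTCA of the element read by ROR and REV-ERB nuclear receptors, and, added after the sequences had been seen, the TATA box TATAAA or TATATA. None of the 10 windows held the E-box or the D-box, which occur in 7.15% and 1.06% of all 32851 windows of this length. The second Sult1b1 window held 1 ROR core, at -123 from the start site and on the opposite strand, and 2.61% of all windows hold one. TATA letters occurred 3 times in the Sult6b2 window, with overlapping matches among them, and once in that of Sult1d1, against 17.1% of all windows. These are letter matches in short windows and say nothing about binding elsewhere. Slc13a1 and Slc26a2 are named only.

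Total counts were 4.34 to 6.06 M in control (median 5.35 M) and 4.79 to 6.91 M in knockout (median 5.45 M). An observed count of 0 allows up to 3 counts, or 0.434 to 0.692 counts per M (counting error only, since the reads carry no molecular identifiers). Arntl, read first as a check of the labels, had group means from 10.4 CPM (counts per M of tested genes after scaling) at CT9 to 78.4 CPM at CT21 in control, with an amplitude of 1.62 (SE 0.07) on the log2 scale, and from 27.3 to 31.4 CPM in knockout with an amplitude of 0.04 (SE 0.07). Its knockout level was therefore flat but not near 0, and at CT9 and CT13 it was above that of control. The count covers all exons of the gene in whole tissue. Summed enterocyte markers (10 genes, among them Vil1, Fabp1 and Sis) ranged from 25275 to 43543 CPM in control (knockout 26266 to 47577 CPM). Single genes of that list moved both ways over all times, 3 of 10 higher in the knockout and 2 lower. Of the 4 distal markers Fabp6 and Hoxb9 were too low to be tested. Slc10a2 was at 1.26 and 0.893 CPM and Osr2 at 53.4 and 55.9 CPM in control and knockout. T cell and intraepithelial lymphocyte markers were lower in the knockout for 6 of 6 genes, at a sum of 93.3 to 363 CPM against 48.3 to 112 CPM. B and plasma cell markers were lower for 4 of 4, at 510 to 993 CPM against 259 to 1132 CPM. In whole tissue, fewer cells of a type and less RNA per cell cannot be told apart. A set of 5 libraries stood apart from the rest: replicates 1, 2 and 3 of knockout CT1, replicate 4 of knockout CT21 and replicate 1 of control CT21. Their relative log expression had an interquartile range of 0.600 to 1.12, against 0.279 to 0.476 in the other 42, and the slope of their relative log expression on gene length was -0.262 to -0.108, against -0.055 to 0.066. As 3 of the 4 knockout CT1 libraries are among them, values at CT1 are given with and without the 5.

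Over the 6 times together, 3 of the 8 genes passed an adjusted p of 0.05 for genotype: Slc13a1 and Sult6b2 were lower and Sult1b1 was higher in the knockout. Among all 15646 genes tested, 23.3% passed, and since the group was chosen on these libraries nothing is read from the members' count. By time the members passing were 5 for CT1, where 20.7% of all genes passed, and 0 for CT5, where 0.837% did. They were 2 for each of the next times, beside 3.60% of all genes for CT9, 3.39% for CT13 and 2.09% for CT17, and 1 for CT21, beside 1.43%. Without the 5 libraries that stood apart, the count at CT1 was 0. For a 24-h rhythm, 3 of the 8 passed in control (Slc13a1, Papss2 and Sult6b2), beside 20.5% of all genes, and 1 in knockout (Slc26a2), beside 14.6%. The same 3 as in control passed the test of the difference between the rhythms, beside 1.50% of all genes. The libraries of the 2 genotypes did not overlap for 1 member each in CT1 (all genes 16.7%) and CT5 (7.75%), 3 each in CT9 (12.3%) and CT13 (13.7%), 4 in CT17 (10.9%) and 1 in CT21 (4.32%).

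Of the 8 genes, the transporter gene Slc13a1 had the largest log2 difference averaged over the 6 times. Slc13a1 (ENSMUSG00000029700.11, chr6:24088283-24168092, minus strand, 7.73 kb of exon) encodes the sodium-sulfate cotransporter of brush borders. In control its level was low around CT1 and CT5, high around CT13 and CT17, and in the knockout it was low at all 6 times. At CT1 the control libraries held 16.4, 17.6, 10.6 and 19.4 CPM and the knockout libraries 10.8, 9.52, 4.33 and 8.37 CPM. At CT5 the values were 14.1, 21.1, 28.4 and 14.3 CPM in control and 7.67, 9.98, 10.9 and 20.6 CPM in knockout. The genotypes overlapped at both of these times. CT9 gave 57.7, 106, 70.3 and 81.0 CPM in control and 19.4, 13.7 and 17.2 CPM in knockout. CT13, the highest control group, gave 136, 128, 181 and 164 CPM against 18.1, 10.2, 13.7 and 12.8 CPM. CT17 gave 85.1, 116, 158 and 129 CPM against 12.1, 8.94, 12.7 and 9.03 CPM. From CT9 on, each knockout library lay below each control library of its time. The same held at CT21, with 29.5, 29.5, 36.3 and 67.8 CPM in control and 13.8, 6.75, 19.6 and 12.2 CPM in knockout.

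**Figure D1:**
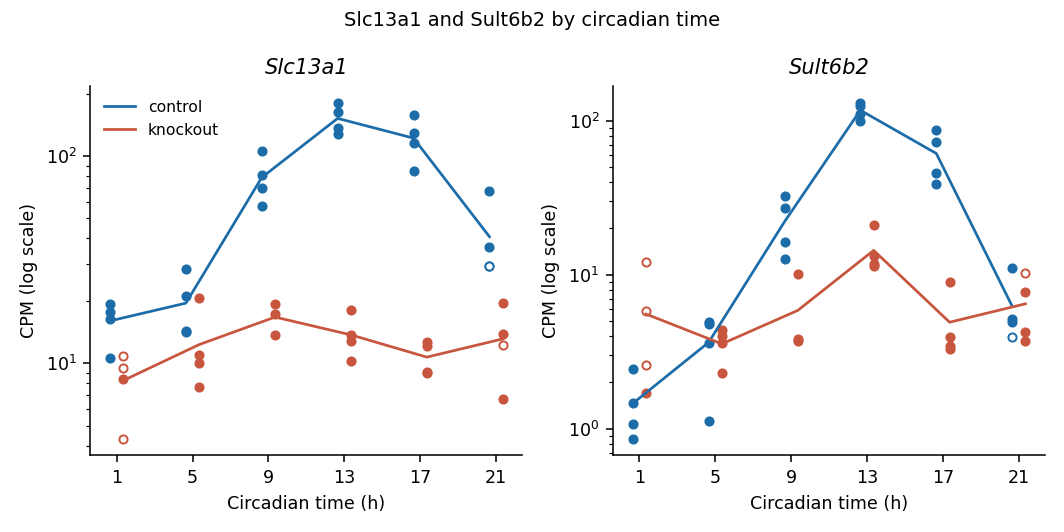
Slc13a1 and Sult6b2 in CPM on a log axis against circadian time in hours; points are libraries (blue control, red knockout, open for the 5 libraries that stood apart) and lines join group means. Control lines reach 152 CPM for Slc13a1 and 117 CPM for Sult6b2 at CT13, where the knockout means are 13.7 and 14.4 CPM.

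The control mean of Slc13a1 went from 16.0 ± 3.83 CPM (SD, n = 4) at CT1 to 152 ± 24.3 CPM (SD, n = 4) at CT13, a ratio of 9.50 between the highest and lowest group. In the knockout the group means lay between 8.25 ± 2.79 CPM (SD, n = 4) at CT1 and 16.7 ± 2.89 CPM (SD, n = 3) at CT9, a ratio of 2.02. The fitted 24-h amplitude, the distance from mid-level to peak on the log2 scale, was 1.74 (SE 0.12) with a peak at CT14.1 in control and 0.28 (SE 0.14) in knockout. The log2 difference, knockout minus control, was -0.95 (SE 0.33) at CT1 and -0.67 (SE 0.31) at CT5. That at CT1 passed with all libraries, but not without the 5 that stood apart (-0.98), with no filter on low counts (-0.93), or without any one of control CT1 replicates 1, 2 and 4 and knockout CT1 replicate 3. The difference was -2.24 (SE 0.32) at CT9, -3.47 (SE 0.30) at CT13, -3.52 (SE 0.31) at CT17 and -1.64 (SE 0.30) at CT21. The knockout was thus lower at each time, by ratios of the group means from 1.59 at CT5 to 11.5 at CT17. Over all times the difference was -2.08 (SE 0.13, 95% interval -2.34 to -1.83), at means of 71.6 and 12.5 CPM, and -2.10 without the 5 libraries that stood apart. Ordered by level, the 6 knockout groups and control CT1 and CT5 formed a low range in which each overlapped its neighbour. Control CT21 was the first group above that range without overlap with the group below it, and CT9, CT17 and CT13 followed, each overlapping the one before. The enterocyte marker sums given above overlapped widely between the genotypes, although 3 of the 10 genes were higher and 2 lower in the knockout. The lymphocyte markers were lower in knockout. The part of any of these markers in the Slc13a1 difference was not tested.

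Slc26a2 (ENSMUSG00000034320.14, chr18:61192919-61211612, minus strand, 12.4 kb of exon), the other transporter of the group and an exchanger of sulfate for other anions, differed little by genotype and was highest at CT9 in both. Its control group means ranged from 199 ± 71.0 CPM (SD, n = 4) at CT21 to 316 ± 25.1 CPM (SD, n = 4) at CT9. Its knockout means ranged from 159 ± 38.6 CPM (SD, n = 4) at CT1 to 302 ± 72.6 CPM (SD, n = 3) at CT9. The libraries of the genotypes overlapped at all 6 times. The 24-h amplitude was 0.27 (SE 0.09) with a peak at CT9.0 in control and 0.48 (SE 0.09) with a peak at CT9.7 in knockout. The rhythm passed in the knockout and not in control, but the difference of the rhythms did not pass. The control rhythm did pass with upper-quartile scaling (0.27), with limma-voom (0.28) and in 7 of 47 fits that left out 1 library. The log2 difference over all times was -0.09 (SE 0.09, 95% interval -0.26 to 0.08), an interval that leaves room for a lower knockout level by about 0.26. The 3 lowest of the 47 libraries were 98.4 CPM in knockout CT21 replicate 4, 105 CPM in knockout CT1 replicate 3 and 108 CPM in control CT21 replicate 1, all of them among the 5 that stood apart. Without these 5 the difference was -0.07, and the amplitudes were 0.21 in control and 0.35 in knockout.

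PAPS synthesis was represented by a gene with a daily pattern in control, Papss2, and a near-flat one, Papss1. Papss2 (ENSMUSG00000024899.7, chr19:32595790-32667187, plus strand, 3.72 kb of exon) was the more abundant per exon length, and its promoter window is printed above. At CT1 its control libraries held 204, 245, 241 and 279 CPM and its knockout libraries 480, 312, 207 and 370 CPM. At CT5 they held 232, 260, 312 and 294 CPM against 306, 316, 326 and 305 CPM. At CT9 they held 366, 344, 297 and 379 CPM against 287, 311 and 294 CPM. Up to here the ranges of the genotypes overlapped. CT13 gave 407, 456, 355 and 430 CPM in control and 328, 289, 286 and 306 CPM in knockout. CT17 gave 464, 387, 549 and 437 CPM in control and 307, 330, 367 and 316 CPM in knockout. At these times all knockout libraries lay below all control libraries. At CT21 the values overlapped again, with 227, 298, 328 and 408 CPM in control and 398, 299, 411 and 343 CPM in knockout.

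The Papss2 amplitude was 0.44 (SE 0.06) with a peak at CT14.6 in control and 0.14 (SE 0.06) in knockout. Its control mean was 1.90 times as high at CT17 as at CT1, while the knockout means lay between 297 CPM at CT9 and 363 CPM at CT21. The log2 difference had opposite signs along the day: 0.50 (SE 0.16) at CT1, -0.45 (SE 0.16) at CT13 and -0.48 (SE 0.16) at CT17. Averaged over the day it was -0.04 (SE 0.06, 95% interval -0.17 to 0.09). At CT1 the difference was 0.57 without the 5 libraries that stood apart, when knockout CT1 had a single library left at 370 CPM. Of these 3 differences that at CT1 passed with all libraries, but not without the 5 or in a fit of the 2 groups compared (0.45). It also no longer passed without control CT1 replicate 1 or 3 or knockout CT1 replicate 1. Those at CT13 and CT17 did not pass with all libraries, but passed without the 5 and in a fit of the 2 groups compared.

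Papss1 (ENSMUSG00000028032.13, chr3:131564768-131643671, plus strand, 3.05 kb of exon), the other PAPS synthase, had the smallest genotype difference over all times of the 8. Its libraries ranged from 78.9 to 137 CPM in control, and those of the knockout from 63.7 to 131 CPM. Both ends of the knockout range, CT21 replicate 4 and CT1 replicate 1, were among the 5 libraries that stood apart. The log2 difference over all times was 0.00 (SE 0.06, 95% interval -0.12 to 0.12), which bounds the average over the day at 0.12 in either direction. At single times it ran from -0.27 (SE 0.14) at CT13 to 0.24 (SE 0.14) at CT1, and none passed. Group means were highest at CT13 in control, 121 ± 16.9 CPM (SD, n = 4), and at CT17 in knockout, 118 ± 5.27 CPM (SD, n = 4). At CT17 the 4 knockout libraries, at 111 to 124 CPM, lay just above the 4 control libraries at 98.8 to 110 CPM. The amplitudes were 0.16 (SE 0.06) with a peak at CT14.0 in control and 0.09 (SE 0.06) in knockout. The control rhythm did not pass with all libraries and passed without the 5 that stood apart, at an amplitude of 0.15.

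**Figure D2:**
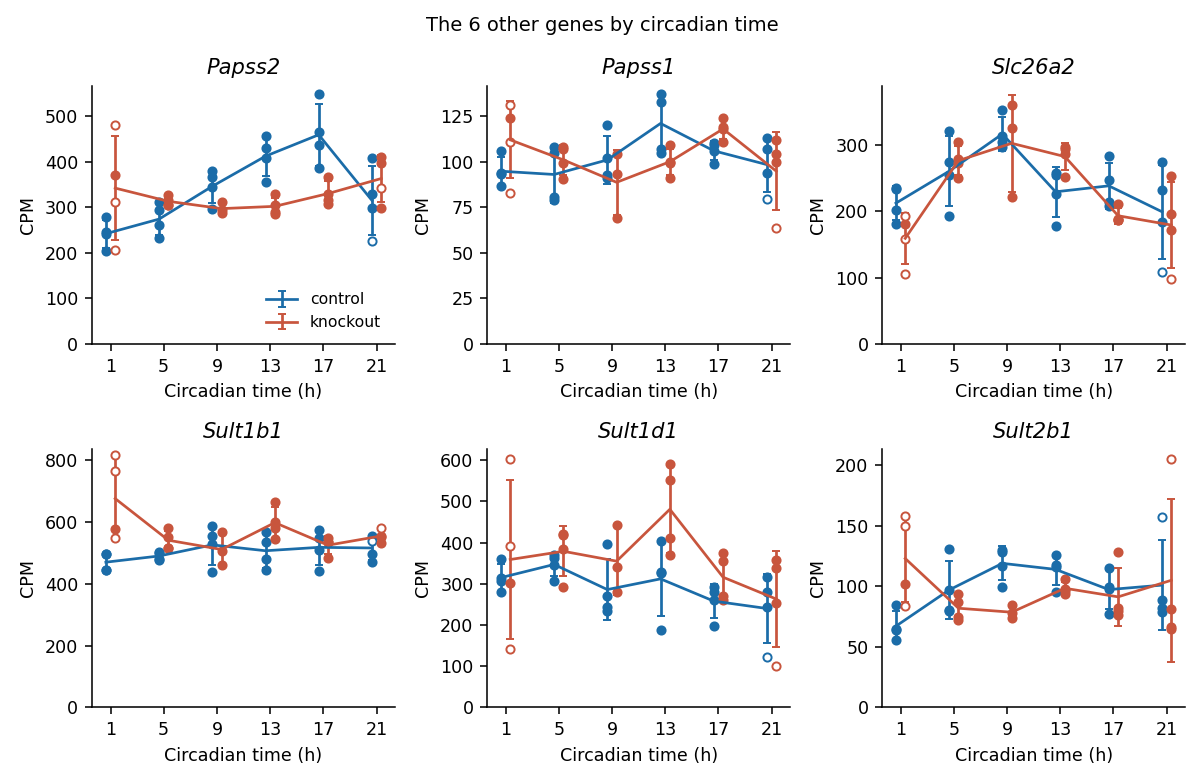
CPM on linear axes from 0 against circadian time in hours for Papss2, Papss1, Slc26a2, Sult1b1, Sult1d1 and Sult2b1; points are libraries (open for the 5 that stood apart), lines join group means and bars are SD (n = 4, or 3 at knockout CT9). The genotypes of Papss2 separate at CT13 and CT17, and open points are the lowest of Slc26a2, the lowest and highest of Sult1d1 and the highest of Sult2b1.

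Among the sulfotransferases, Sult6b2 was the one with a 24-h pattern past the threshold in control. Sult6b2 (ENSMUSG00000048473.15, chr6:142785204-142804502, minus strand, 2.16 kb of exon) belongs by sequence to the cytosolic sulfotransferase family. In control it went from near the limit of detection to well above it within the day. At CT1 the control libraries held 0.865, 2.43, 1.08 and 1.46 CPM (5 to 14 counts each) and the knockout libraries 5.86, 12.1, 2.60 and 1.71 CPM. At CT5 they held 1.13, 4.81, 4.97 and 3.63 CPM against 2.32, 4.35, 3.58 and 4.0 CPM. Both times were low in both genotypes, and the ranges overlapped. CT9 gave 12.7, 27.2, 16.3 and 32.3 CPM in control and 3.81, 10.1 and 3.70 CPM in knockout. CT13 gave 111, 125, 100 and 131 CPM against 13.2, 11.8, 11.4 and 21.1 CPM. CT17 gave 46.0, 38.7, 87.3 and 73.3 CPM against 3.44, 3.29, 8.99 and 3.95 CPM. At CT9, CT13 and CT17 the genotypes did not overlap. By CT21 they did, at 3.92, 5.14, 4.90 and 11 CPM in control and 4.23, 3.69, 7.70 and 10.3 CPM in knockout.

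The highest control group of Sult6b2, 117 ± 14.1 CPM (SD, n = 4) at CT13, was 80.1 times the lowest, 1.46 ± 0.694 CPM (SD, n = 4) at CT1. In the knockout CT13 was also the highest group, at 14.4 ± 4.56 CPM (SD, n = 4), and the ratio of the highest to the lowest group was 4.04. The amplitude was 3.16 (SE 0.22) with a peak at CT13.9 in control and 0.65 (SE 0.21) with a peak at CT13.8 in knockout. The knockout rhythm did not pass, but without the 5 libraries that stood apart its amplitude was 1.09 and it passed. The log2 difference was -1.88 (SE 0.46) at CT9, -3.03 (SE 0.39) at CT13 and -3.64 (SE 0.43) at CT17, and 0.01 (SE 0.47) at CT21. That at CT21 was -0.43 without the 5 libraries that stood apart. The CT9 difference no longer passed without knockout CT9 replicate 2 or replicate 4, and ranged from -2.54 to -1.64 as libraries were left out in turn. At CT1 it was 1.87 (SE 0.59) in the other direction, and 0.17 without the 5 libraries, when the lone knockout library left was that at 1.71 CPM. Over all times it was -1.12 (SE 0.20, 95% interval -1.53 to -0.71), and -1.48 without the 5 libraries. This average of log2 differences includes the CT1 value, whereas the plain means over the 6 groups, 35.3 and 6.79 CPM, differ by a ratio of 5.19. Ordered by level, control CT13, control CT17 and knockout CT13 each lay above the group below them without overlap. The other neighbours overlapped.

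Sult1b1 and Sult1d1, which act on phenols and related small molecules, lie 16.4 kb apart on the minus strand of chromosome 5 and were the most abundant of the 8 genes per exon length. Sult1b1 (ENSMUSG00000029269.11, chr5:87513339-87538195, 2.78 kb of exon) was nearly level over the day in control, from 470 ± 29.4 CPM (SD, n = 4) at CT1 to 526 ± 63.7 CPM (SD, n = 4) at CT9. Its amplitudes were 0.06 (SE 0.05) in control and 0.08 (SE 0.05) in knockout. Its second promoter window, shown above, held the ROR core. Its level varied over the control day by a ratio of 1.12 between the highest and lowest group. A link between the motif and the level was not tested. The knockout means ranged from 511 ± 52.9 CPM (SD, n = 3) at CT9 to 676 ± 135 CPM (SD, n = 4) at CT1. At CT1 the knockout libraries held 764, 817, 547 and 576 CPM against 444, 445, 495 and 496 CPM in control, and at CT5 they held 581, 517, 550 and 516 CPM against 480, 476, 503 and 499 CPM. The genotypes did not overlap at these 2 times and overlapped at the other 4. The log2 difference was 0.17 (SE 0.05, 95% interval 0.07 to 0.26) over all times and 0.53 (SE 0.11) at CT1. Without the 5 libraries it was 0.12 over all times, still past the threshold, and 0.26 at CT1, no longer past it. Without the CT1 groups it was 0.10 and did not pass.

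Sult1d1 (ENSMUSG00000029273.10, chr5:87554645-87569027, 2.46 kb of exon) was 0.28 (SE 0.13, 95% interval 0.02 to 0.53) higher on the log2 scale in the knockout over all times and did not pass the threshold. Leaving out knockout CT1 replicate 3 or knockout CT21 replicate 4 alone brought it past, with differences between 0.22 and 0.33 over all libraries left out in turn. At CT13, where the difference was 0.63 (SE 0.31), the knockout libraries held 369, 552, 412 and 590 CPM and the control libraries 326, 188, 329 and 403 CPM, with overlap. Its 3 lowest libraries, at 101, 121 and 141 CPM, were knockout CT21 replicate 4, control CT21 replicate 1 and knockout CT1 replicate 3, the same 3 as for Slc26a2. Its highest, 602 CPM, was knockout CT1 replicate 2, also among the 5 that stood apart. Neither genotype had a rhythm past the threshold, at amplitudes of 0.20 (SE 0.12) and 0.29 (SE 0.13).

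Sult2b1 (ENSMUSG00000003271.17, chr7:45729983-45784669, minus strand, 3.95 kb of exon) encodes a sulfotransferase of cholesterol and other hydroxysteroids. Of its exon bases, 321 are shared with Gm31597 and Lmtk3 on the opposite strand, and how the counting treated strand is not known here, so its level may include reads of those genes. Its 4 highest libraries, at 205, 158, 157 and 150 CPM, were knockout CT21 replicate 4, knockout CT1 replicate 1, control CT21 replicate 1 and knockout CT1 replicate 3, all of them among the 5 that stood apart. The log2 difference was 0.88 (SE 0.25) at CT1, at 55.3, 64.1, 64.7 and 84.3 CPM in control and 158, 83.4, 150 and 102 CPM in knockout. Without the 5 libraries it was 0.57 and did not pass. At CT9 the direction was opposite: 130, 128, 99.3 and 117 CPM in control lay above 77.6, 73.9 and 84.3 CPM in knockout, a difference of -0.59 (SE 0.27) that did not pass with all libraries and passed without the 5. Over all times it was -0.04 (SE 0.10, 95% interval -0.24 to 0.17), and -0.13 without the 5 libraries. The control amplitude was 0.29 (SE 0.11) with a peak at CT12.2, and was 0.37 and past the threshold without the 5 libraries.

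**Figure D3:**
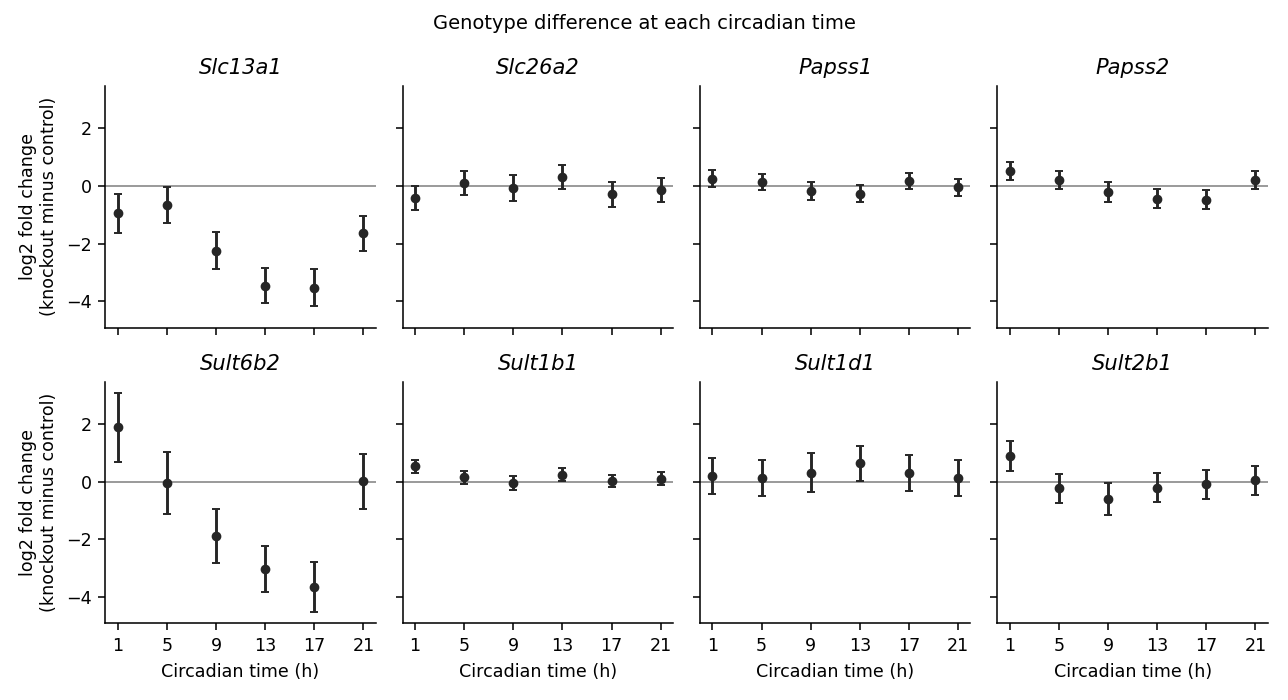
Log2 fold change, knockout minus control, with 95% intervals from the edgeR fit at each circadian time in hours for the 8 genes. Slc13a1 lies below 0 at each time, Sult6b2 from CT9 to CT17, and Papss2 changes sign between 0.50 at CT1 and -0.48 at CT17.

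Compared per exon length, the control means over the 6 times were 181 CPM per kb for Sult1b1, 119 for Sult1d1, 91.8 for Papss2, 33.5 for Papss1, 25.1 for Sult2b1, 19.6 for Slc26a2, 16.3 for Sult6b2 and 9.27 CPM per kb for Slc13a1. In the knockout the last 2 were at 3.14 and 1.61 CPM per kb, and the other 6 kept their order, from 204 to 18.7 CPM per kb. The 2 genes with the lowest means were thus those with the widest range over the control day. Exon length here is that of the merged annotation, and an isoform in use may be shorter.

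**Figure D4:**
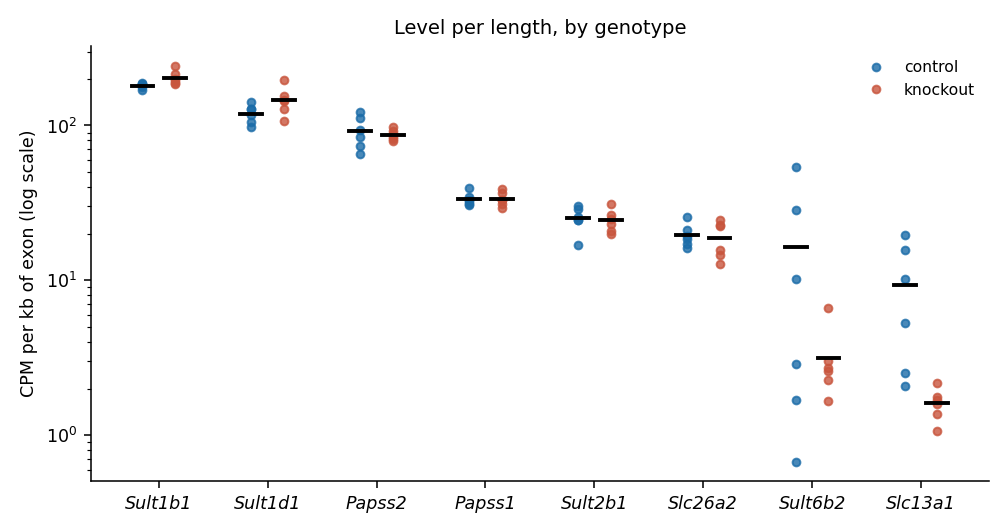
Level in CPM per kb of exon on a log axis for the 8 genes; each point is 1 of the 6 group means of a genotype (blue control, red knockout) and the bar is their mean. Sult1b1 is highest at 181 CPM per kb in control, and the control points of Sult6b2 and Slc13a1 spread widest.

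The genes whose 12 group means of log2 CPM ran closest to those of each member were ranked among 9626 genes with a mean of at least 10 CPM. The 12 points share libraries and the genotype contrast, so the coefficients are descriptions. The means of knockout CT1 and of CT21 in both genotypes include libraries that stood apart. The coefficients were not computed without those libraries. For Slc13a1 they were 4931406C07Rik (Pearson r = 0.956), Nat8f5 (0.950), Esyt1 (0.949), Larp4b (0.945) and Fam76a (0.938). Of these, Nat8f5, an N-acetyltransferase-like gene, had the pattern nearest in size, from 42.1 CPM in control to 12.6 CPM in knockout with a control amplitude of 1.39 and a peak at CT13.9. The other 4 had control amplitudes of 0.12 to 0.38. For Sult6b2 they were Akr1c19 (0.966), an aldo-keto reductase gene with a control amplitude of 1.08 and a peak at CT14.2, and Cdc42se2 (0.957). For Papss2 they were Tspan13 (0.914) and Itpr2 (0.895). Between the members, r was 0.844 for Slc13a1 with Sult6b2, 0.844 for Sult6b2 with Papss2 and 0.638 for Slc13a1 with Papss2. Slc26a2 ran closest to Tab3 (0.945) and Clcn3 (0.944), and Papss1 to Clp1 (0.885) and Limd1 (0.851). Sult1b1 ran closest to Txndc17 (0.946) and Vdac3 (0.931), Sult1d1 to Mut (0.882) and mt-Nd2 (0.880), and Sult2b1 to Prr15 (0.949) and Cdk18 (0.915).

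The rest of sulfate metabolism was covered by 90 further genes in 6 lists, of which 52 had enough counts to be tested. Over all times 9 rose and 9 fell in the knockout at an adjusted p under 0.05 and 34 did not pass. The median log2 fold change was 0.00 against -0.01 over all genes, and 23.3% of all genes passed against 34.6% of these. The 18 that passed moved by less than 2-fold except Arsg and Chst3. Without the 5 libraries 8 rose and 6 fell. Below, each adjusted p is Benjamini-Hochberg over all 15646 genes from edgeR's quasi-likelihood test, and the fold change is knockout minus control on the log2 scale with its SE.

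Of the 8 other sulfate and anion carriers, 3 were tested. Slc26a6, an apical anion exchanger, rose from 262 to 325 CPM (0.31, SE 0.06, adjusted p = 3.1e-05), and was higher at 6 of 6 times. Slc26a3, the chloride/bicarbonate exchanger of the brush border, was at 182 and 185 CPM (0.03, SE 0.09), and Slc26a11, another family member that carries sulfate, at 10.2 and 9.43 CPM (-0.11, SE 0.08); neither passed. Slc13a4, the relative of Slc13a1, and Slc26a1, a basolateral sulfate exchanger, were too low to be tested. The PAPS carriers of the Golgi, Slc35b2 and Slc35b3, and the phosphatases that clear PAP, Bpnt1 and Bpnt2, made 4 of 4 tested genes that did not pass, with fold changes from -0.05 to 0.13.

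Of the 17 other cytosolic sulfotransferases, 11 had no count in any library, among them Sult1e1, Sult2a1 and Sult3a1, and 3 were tested. Sult1a1, a phenol sulfotransferase, fell from 6.02 to 4.89 CPM (-0.30, SE 0.09, adjusted p = 0.016), a call lost without CT1 and with no filter on low counts. Sult1c2 rose from 1.39 to 1.86 CPM (0.44, SE 0.16, adjusted p = 0.042), a call that was lost in 25 of 47 fits that left out 1 library. Sult4a1 was at 2.02 and 2.07 CPM. These levels are per gene and not per length; the 3 tested genes stood at a few CPM, whereas the 4 sulfotransferase members had control means of 35.3 to 504 CPM.

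Of 36 Golgi sulfotransferases 19 were tested, and 3 rose and 5 fell. Tpst2, which sulfates tyrosines of secreted proteins, rose from 11.4 to 15.7 CPM (0.46, SE 0.08, adjusted p = 9.4e-06). Hs3st1, which acts on heparan sulfate, rose from 7.46 to 10.2 CPM (0.46, SE 0.08, adjusted p = 4.6e-05). Gal3st1, which makes the glycolipid sulfatide, rose from 25.1 to 31.2 CPM (0.31, SE 0.08, adjusted p = 0.0027). Each was higher in the knockout at 6 of 6 times. Chst11, a chondroitin sulfotransferase, fell from 8.25 to 6.10 CPM (-0.44, SE 0.09, adjusted p = 0.00017). Ndst2, which prepares heparin chains, fell from 34.8 to 31.2 CPM (-0.16, SE 0.05, adjusted p = 0.017), and Hs3st3b1 from 4.49 to 3.50 CPM (-0.37, SE 0.12, adjusted p = 0.025). The remaining pair, named after their values were seen, were Chst15 (-0.18, SE 0.06, adjusted p = 0.033) and Chst3 (-1.28, SE 0.48, adjusted p = 0.048), the latter at 1.90 and 0.536 CPM. The calls of Hs3st3b1, Chst15 and Chst3 were lost without the 5 libraries, and those of Ndst2, Chst15 and Chst3 without CT1. With no filter on low counts those of Ndst2, Hs3st3b1, Chst15 and Chst3 were lost. That of Hs3st3b1 was also lost without CT9 or CT21, and that of Chst15 without CT5, CT13 or CT17. The Chst3 call was also lost without CT5 and with limma-voom. The fibroblast and endothelial markers, cells in which chondroitin sulfate enzymes are also expressed, fell for 3 of 5 genes, at a sum of 292 to 485 CPM in control (knockout 197 to 405 CPM); their part in the Chst genes was not tested.

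Of 14 sulfatases and their activators 13 were tested, and 2 rose and 2 fell. Arsg, the lysosomal arylsulfatase G, had the largest fold change among the sulfatases, from 19.9 to 43.2 CPM (1.11, SE 0.08, adjusted p = 2.6e-15). In control its group means ranged from 9.22 ± 2.29 CPM (SD, n = 4) at CT9 to 26.7 ± 4.32 CPM (SD, n = 4) at CT17, and in knockout from 25.1 ± 3.18 CPM (SD, n = 3) at CT9 to 60.1 ± 6.65 CPM (SD, n = 4) at CT17. The fitted 24-h amplitudes were 0.58 and 0.66 on the log2 scale, with peaks at CT20.4 and CT20.0. The difference of rhythms did not pass (adjusted p = 0.97), which does not show that the rhythms were equal. Between CT5 and CT9 Arsg went from 17.2 to 9.22 CPM in control and from 26.9 to 25.1 CPM in knockout. It passed singly in each time but CT5; at CT1 the difference was 0.93 without the 5 libraries and did not pass (adjusted p = 0.09). Arsa, which removes sulfate from sulfatide, rose from 26.5 to 30.8 CPM (0.22, SE 0.05, adjusted p = 0.0013). Sulf2, an extracellular sulfatase of heparan sulfate, fell from 117 to 99.0 CPM (-0.23, SE 0.06, adjusted p = 0.0021), a call lost without CT9 (-0.15).

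Sulfate is also formed in the body by oxidation of cysteine and sulfide, and of 11 genes of that route 10 were tested. Ethe1, the mitochondrial persulfide dioxygenase, rose from 17.9 to 27.5 CPM (0.61, SE 0.09, adjusted p = 1.4e-06) and was higher at 6 of 6 times. Sqor, which oxidises hydrogen sulfide, rose from 117 to 132 CPM (0.18, SE 0.06, adjusted p = 0.018), a call lost without the 5 libraries (0.13), without CT1 (0.15), without CT9 (0.13) and without CT13 (0.15). Got1, the cytosolic aspartate aminotransferase, fell from 119 to 106 CPM (-0.14, SE 0.05, adjusted p = 0.039), a call lost without CT9 (-0.03), CT13 (-0.11) or CT17 (-0.13) and with no filter (-0.13). Its sign differed along the day: 3 of 6 times were lower, and it was higher at CT1 (0.37, SE 0.13, adjusted p = 0.034; 0.22 and not passing without the 5 libraries). Suox, the sulfite oxidase that makes sulfate, was at 15.8 and 17.5 CPM (0.15, SE 0.06, adjusted p = 0.057) and did not pass.

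**Figure D5:**
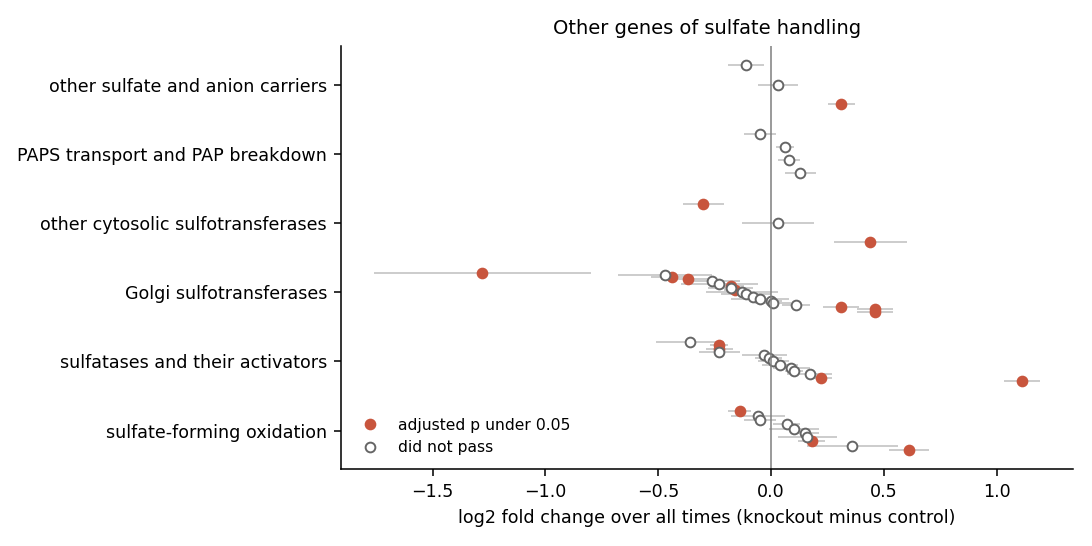
Log2 fold change over all times, knockout minus control, with SE as bars, for the 52 tested genes of the 6 lists; filled points passed an adjusted p of 0.05 and open points did not. The point farthest right is Arsg at 1.11 and the one farthest left is Chst3 at -1.28.

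Taken time by time, 24 of the 312 pairs of a pathway gene and a time passed: 14 belonged to CT1 and 0 to CT5, 4 each to CT9 and CT13, and 1 each to CT17 and CT21. The 14 of CT1 were 26.9% of the pathway genes beside 20.7% of all genes, and 0 of them passed without the 5 libraries, which left 1 knockout library at that time and 0.243% of all genes passing. At CT9 and CT13 the 4 were 7.69%, beside 3.60% and 3.39% of all genes, and the single genes of CT17 and CT21 were 1.92%, beside 2.09% and 1.43%. All 10 calls of CT9 to CT21 held without the 5 libraries. At CT5, CT9, CT13 and CT17, where none of the 5 lay, more pathway genes passed without them than with all libraries. Larger shares of all genes passed at these times too, and CT13 then had the most pathway genes passing. Leaving out knockout CT1 replicate 1 alone took the 24 pairs to 15. At CT1 Arsg was at 24.0 CPM in control and 56.7 CPM in knockout (1.24, SE 0.18, adjusted p = 2.5e-05). Ethe1 was at 17.3 and 34.9 CPM (1.01, SE 0.22, adjusted p = 0.0021). Without the 5 libraries Arsg and Ethe1 were at 0.93 (SE 0.24) and 0.32 (SE 0.23). In that same fit Ethe1 was at 0.67 (SE 0.16) at CT9 and 0.56 (SE 0.15) at CT13. Tpst2 was at 0.61 (SE 0.16) at CT13 and 0.56 (SE 0.16) at CT17. In the other direction, Chst11 was at -0.64 (SE 0.19) at CT13 and Cth at -0.41 (SE 0.11) at CT17. These values of Ethe1, Tpst2, Chst11 and Cth at CT9 to CT17 passed without the 5 libraries but not with all libraries. They are therefore not among the 24 pairs. At CT9 Got1 was at 152 and 93.8 CPM (-0.70, SE 0.14, adjusted p = 0.00075) and Sulf2 at 132 and 85.5 CPM (-0.62, SE 0.15, adjusted p = 0.0083), the latter not passing without knockout CT9 replicate 2. Slc26a6 passed at CT1 (0.49, SE 0.13, but 0.37 and not passing without the 5 libraries) and at CT13 (0.56, SE 0.13, adjusted p = 0.009).

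A 24-h rhythm passed for 14 of the 52 pathway genes in control and 7 in knockout, beside the background shares of 20.5% and 14.6%. In control these included Got1 (amplitude 0.45, peak CT12.1, adjusted p = 7.5e-08), Ndst1 of heparan sulfate synthesis (0.40, peak CT20.6, adjusted p = 5.8e-06) and Slc35b3 (0.23, peak CT4.3, adjusted p = 0.00093). The difference between the rhythms passed for 2. Got1 (adjusted p = 0.0052) had a knockout amplitude of 0.07, with control means from 85.1 CPM at CT1 to 156 CPM at CT13 and knockout means from 93.8 to 126 CPM. Sulf2 (adjusted p = 0.0058) had amplitudes of 0.32 with a peak at CT12.3 in control and 0.14 in knockout, with control means from 87.6 CPM at CT1 to 139 CPM at CT13 and knockout means from 85.5 to 109 CPM; without the 5 libraries its difference of rhythms did not pass. The control peaks of both fell within about 3 h of those of Slc13a1, Sult6b2 and Papss2.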

How the data were processed

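RNA from jejunum was sequenced in 47 libraries. The file deposited by the authors is a matrix of unscaled read counts, genes by libraries. Per the labels' protocols, RNA came from a NucleoSpin kit and a stranded mRNA kit made the libraries. Per the submitters' processing notes, which give no roles, the build was mm10 and the tools were featureCounts 1.4.6, STAR 2.7.5c, SAMtools 1.3.1, DESeq2 1.22.0, Trimmomatic 0.39 and FastQC 0.11.5. Settings, annotation release and counting strand were not given in the sources used here. Of 55401 IDs, 54349 matched a GENCODE mm10 annotation with their version, 792 without it and 260 not.

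The tests ran in edgeR 4.0.16 (R 4.3.3), and limma 3.58.1 and DESeq2 1.42.0 served as alternatives. After filterByExpr (minimum count 10) on the 12 groups and TMM scaling, 15646 genes were fitted with a mean per group (35 residual degrees of freedom, robust quasi-likelihood), so all groups shared 1 estimate of the spread. Contrasts were knockout minus control over the 6 times and at each time. Rhythms and their difference came from a 24-h cosine and sine for each genotype (residual degrees of freedom 41). CPM are counts per M (mega) of fitted genes after scaling. Adjusted p-values are Benjamini-Hochberg over all genes within each contrast, with a threshold of 0.05, and intervals are 95%. All pairs of libraries differed beyond sampling noise (smallest chi-square per degree of freedom 3.23, median within groups 7.63). The fits were tested on simulated data. Interquartile ranges of relative log expression above 0.5 marked the 5 libraries that stood apart, a limit set after seeing the data.

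The members and the lists of pathway genes and markers were chosen with earlier results of these data known. All 8 members were named. Of each pathway list, up to 6 genes with the lowest adjusted p among those past 0.05 were named over all times, and up to 3 at single times and for rhythm. The most alike genes were the 5 of highest Pearson r for Slc13a1 and 2 for each other member. Alternatives were other scalings, filters and tests, a free mean per time, and leaving out libraries or times. Of the lists, 1 gene is counted but not reported here by name.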

Additional observations from a re-analysis of the deposited data

Results flagged for a closer look

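Of 88 groups of 4 libraries of the 8 genes, 5 held a library farther from the other 3 than Dixon's 95% limit for 4 values allows, and chance alone gives about 1 in 20. Slc26a2 was at 211 CPM in knockout CT17 replicate 1, with the others at 186 to 188 CPM. Sult6b2 was at 8.99 CPM in knockout CT17 replicate 3, with the others at 3.29 to 3.95 CPM. Sult2b1 was at 128 CPM in knockout CT17 replicate 4, with the others at 76.6 to 81.9 CPM. It was also at 157 CPM in control CT21 replicate 1, with the others at 78.4 to 88.3 CPM, and at 205 CPM in knockout CT21 replicate 4, with the others at 65.1 to 81.4 CPM. The last 2 libraries are among the 5 that stood apart.

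The 24-h rhythms of 2 pathway genes differed between the genotypes by edgeR's quasi-likelihood test of the difference, Sulf2 with an adjusted p of 0.0058 and Got1 with an adjusted p of 0.0052. That of Sulf2 did not pass without the 5 libraries that stood apart.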

How the results depend on the processing

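No result that passed the threshold changed sign under the alternatives run, while some that did not pass did, such as Sult1d1 at CT1 (0.19 with all libraries and -0.11 without the 5 that stood apart). The members passing at CT1 numbered 5, but 3 with no filter on low counts, 2 in a fit of the 2 groups compared and 0 without the 5 libraries that stood apart. Without these 5, a control rhythm passed for 5 members in place of 3 and for 22 pathway genes in place of 14. A knockout rhythm passed for 2 members in place of 1 without these 5, with a minimum count of 30 and in the F test among group means. With no filter, 3 pathway genes were lower over all times in place of 9, and 4 had a knockout rhythm in place of 7; without CT1, 5 were lower. At CT21, 0 members in place of 1 passed in a fit of the 2 groups compared. These alternatives were planned except the one without the 5 libraries, which was chosen after seeing the data, and the cause of each move was not tested.

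Leaving out each library in turn gave 3360 to 4327 genes called over all times (3642 with all). The members passing at CT1 were 1 to 5: 1 without control CT1 replicate 1, 2 without knockout CT1 replicate 1 and 3 without control CT1 replicate 3. At CT9 they were 1 to 2, the former without knockout CT9 replicate 2 or 4. A knockout rhythm passed for 1 to 2 members, the latter without knockout CT1 replicate 2, CT17 replicate 1, 2 or 4, or CT21 replicate 3 or 4. Pairs of a pathway gene and a time numbered 15 to 28, the former without knockout CT1 replicate 1 (24 with all). Chst3 was under the filter in 3 of these fits and with a minimum count of 30, and its call was lost in 28 of the other 44. The call of Got1 over all times was lost in 10 fits, that of Chst15 in 4 and that of Hs3st3b1 in 2. Depth limits Sult6b2 in control CT1, at 5 to 14 counts. No paired analysis was possible because the labels give no replicate numbers.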
